A study of Homo sapiens with 6 samples.

Results

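The genes described are the nuclear-encoded subunits of the respiratory chain and of ATP synthase, 86 of the 28307 genes in the count table. They were chosen by symbol among protein-coding rows: NDUF subunits of complex I (36 genes), SDHA to SDHD of complex II (4), UQCR genes and CYC1 of complex III (10), COX4 to COX8 genes of complex IV (17) and ATP5F1, ATP5M and ATP5P genes of complex V (19). The rule does not use the measured values, but the genes were chosen with earlier results of these data known.

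The respiratory chain is a set of protein complexes in the inner mitochondrial membrane. Complex I takes electrons from NADH and complex II from succinate, ubiquinone carries them to complex III, cytochrome c carries them to complex IV, and complex IV hands them to oxygen. Complexes I, III and IV pump protons, and complex V, the ATP synthase, uses the returning protons to make ATP. Leukaemic blasts are known to draw on oxidative phosphorylation. Most subunits are nuclear genes, and factors such as NRF1, the ETS factor GABP and YY1 are known to bind many of their promoters.

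The study compared 2 siRNA treatments of OCI-AML3, a human line grown from acute myeloid leukaemia in which 1 NPM1 allele is mutated and its product, NPM1c, sits in the cytoplasm. The siNPM1c group was transfected with an siRNA against NPM1c and the siControl group with a control siRNA, each at 10 nM with Lipofectamine RNAiMAX, and total RNA was taken on day 3. Each group had 3 libraries, all samples carry the same batch label, and the labels give every sample the genotype WT, so the mutant allele is known here only from the line. The labels do not say whether replicates were separate cultures, so p-values measure only the spread between these libraries.

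Libraries held 15075235 to 25190122 counts, of which 16133 to 32239 fell on the subunit genes. NPM1, the targeted gene, had 293, 500 and 350 counts in the siNPM1c libraries, against 922, 1366 and 922 in the siControl libraries, a log2 fold change of -1.10 ± 0.05 (standard error, adjusted p = 5.82e-51). The table has a single NPM1 row, so mutant and normal transcripts were counted together. Of 7 myeloid markers, PTPRC, CD33, ANPEP and LYZ had over 100 counts in every library, MPO 10 to 39, CD34 8 to 19 and KIT 0 to 2. LYZ had 5209 to 8484 counts in the siNPM1c libraries and 1455 to 2218 in the siControl libraries. Among markers of other cell types, HBB was at 0 in every library, CD3E, EPCAM, MS4A1 and KRT18 had at most 4 counts, and COL1A1 had 4 to 14, and PECAM1, which myeloid cells also carry, had 642 to 1204. Ribosomal RNA genes took 70.2% ± 0.85 of counts in the siNPM1c libraries and 63.8% ± 0.755 in the siControl libraries (SD, n = 3 each), and the groups did not overlap. Levels below are CPM, the count of a gene relative to the library size adjusted by TMM, a scaling that sets the bulk of genes level between libraries. The part of the rRNA share and of the LYZ difference in the subunit values was not tested, and in bulk RNA fewer cells of a kind and less RNA per cell cannot be told apart.

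Subunit genes moved in both directions and by small steps. Of the 86 genes, 79 passed the filter on low counts, and 13 were higher and 13 lower in siNPM1c at an adjusted p under 0.05 (quasi-likelihood test of edgeR, Benjamini-Hochberg adjustment over 12938 genes). That is 32.9% of the tested subunit genes, against 42.7% of all genes tested, of which 21.3% were higher and 21.4% lower. The lower calls came to 7 without siNPM1c replicate 2, to 8 with the Wald test of DESeq2 and to 8 after correction for GC content. The groups did not overlap for 36 of the 79, 19 higher and 17 lower in siNPM1c (45.6%, against 49.2% of all genes). The log2 fold changes of the 79 ran from -1.03 to 0.81 with a median of 0.04, against -0.01 for all genes, and 1 of the called genes passed a log2 change of 1 in size. When library sizes alone scaled the counts, the median of all genes was -0.48 and that of the subunit genes -0.43. Under that scaling no subunit gene was called higher, 59 were called lower, and the higher calls below hold only relative to the bulk of genes.

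Calls by complex are set against the 21.3% higher and 21.4% lower of all genes tested. Complex I had 7 higher (19.4%) and 3 lower (8.33%) of 36 tested, with a median of 0.08. Complex II had 1 higher (25%) and 2 lower (50%) of 4, and complex III 1 higher (11.1%) and 2 lower (22.2%) of 9. Complex IV had 3 higher (23.1%) and 1 lower (7.69%) of 13, with a median of 0.12. Complex V had 1 higher (5.88%) and 5 lower (29.4%) of 17, with a median of -0.17. After correction for GC content complex V lost the lower call of ATP5MJ and gained higher calls of ATP5MG, ATP5MGL and ATP5PD. The median GC content of the tested genes was 45.6% for complex V, 50.3% for complex I and 51.6% for complex IV. With library sizes alone the medians were -0.39 for complex I, -0.34 for complex IV and -0.65 for complex V, below 0 for all 3, while those of complexes I and IV still lay above the median of all genes and that of complex V below it. Whether the complexes differ from each other or from other genes of the same number was not tested.

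**Figure D1:**
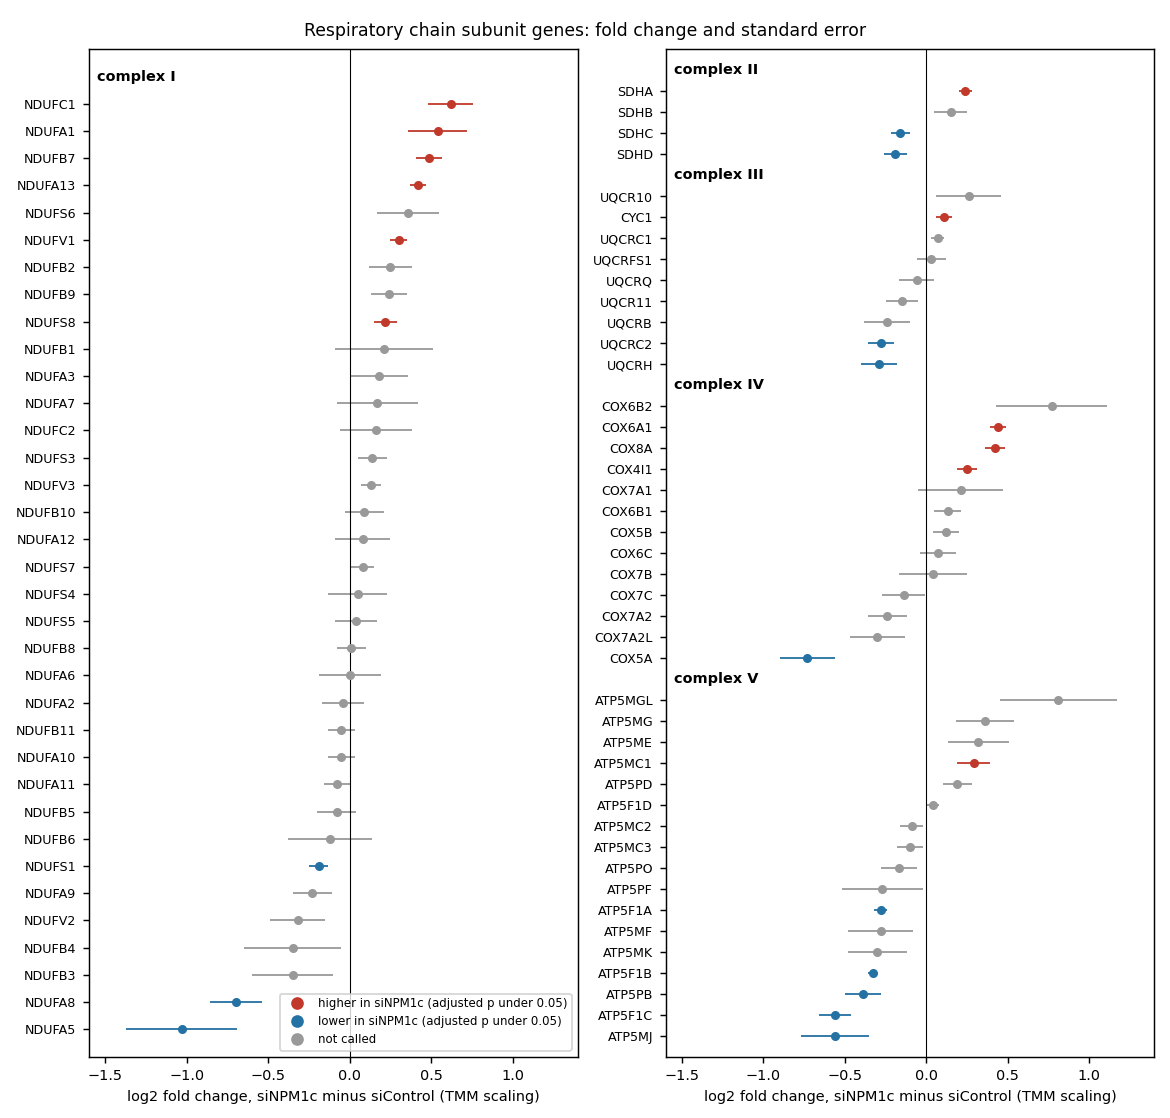
Log2 fold change (horizontal axis, siNPM1c minus siControl, TMM scaling) with its standard error for the tested subunit genes, by complex, with 1 of the 79 not drawn. Red genes were called higher, blue genes called lower and grey genes not called. Complex V holds 5 blue genes and 1 red one; with library sizes alone no gene is called higher.

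Summed over their genes, the complexes moved apart. Complex I genes summed to 412, 415 and 413 CPM in the siNPM1c libraries, against 378, 373 and 374 CPM in the siControl libraries. Complex IV genes summed to 170, 162 and 168 CPM in the siNPM1c libraries, against 142, 141 and 146 CPM in the siControl libraries. Complex V genes summed to 318, 314 and 315 CPM in the siNPM1c libraries, against 350, 358 and 360 CPM in the siControl libraries. These 3 sums separated the groups, as did that of complex II (136 to 142 CPM in siNPM1c, 130 to 132 in siControl), while complex III overlapped (167 to 172 CPM in siNPM1c, 166 to 171 in siControl). The sum over all 86 genes was 1214, 1193 and 1204 CPM in the siNPM1c libraries and 1173, 1168 and 1180 CPM in the siControl libraries. With counts scaled to CPM of protein-coding counts alone the order turned, with 4725, 4649 and 4717 in the siNPM1c libraries and 4825, 4815 and 4866 in the siControl libraries. The direction of the whole set therefore rested on the scale. Complexes I and IV stayed higher and complex V lower in siNPM1c on that scale as well, complex II overlapped, and complex III was lower (652 to 668 in siNPM1c, 685 to 703 in siControl).

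The split between complexes does not depend on the scaling of libraries when taken as shares of the subunit counts in a library. Shares do not remove a trend with GC content, which is given below. Complex V made up 26.2% ± 0.0577 of subunit counts in siNPM1c, against 30.3% ± 0.379 in siControl (SD, n = 3 each, as for all means below). Complex I made up 34.3% ± 0.4 in siNPM1c and 32.0% ± 0.252 in siControl, and complex IV 13.8% ± 0.208 in siNPM1c and 12.2% ± 0.115 in siControl. Complex II took 11.6% ± 0.153 in siNPM1c and 11.1% ± 0.1 in siControl, and complex III 14.0% ± 0.0577 in siNPM1c and 14.4% ± 0.153 in siControl. The groups did not overlap for any complex, but shares that add up to the whole are not independent of each other. A few genes carry each sum: ATP5F1B and ATP5F1A hold 27.9% and 24.1% of complex V counts, SDHA 58.4% of complex II, and COX6A1 21.9% of complex IV, while no complex I gene holds more than the 10.5% of NDUFV1.

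**Figure D2:**
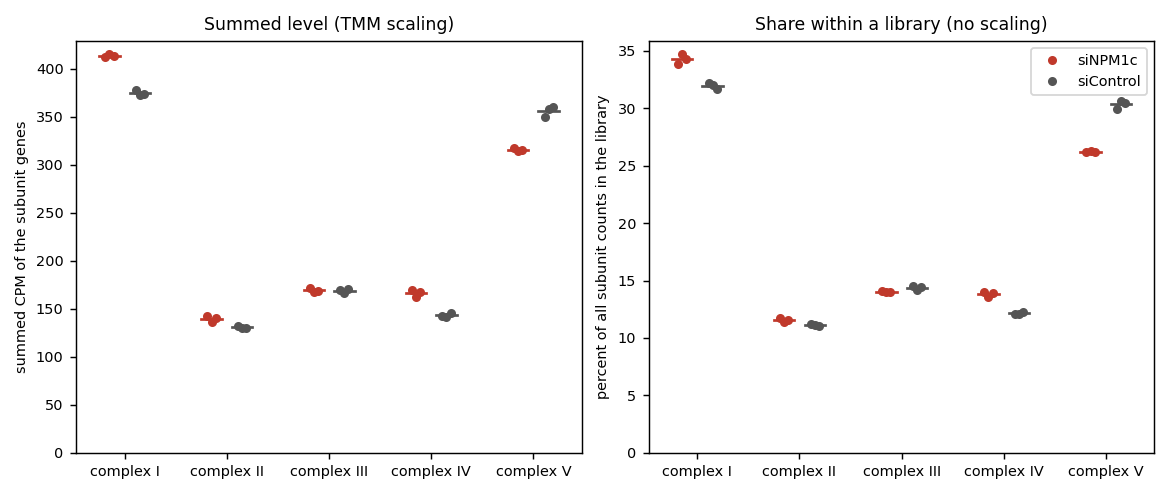
Summed CPM of the subunit genes of each complex (left, TMM scaling) and their share of all subunit counts in the library (right, percent). Points are libraries, red for siNPM1c and grey for siControl, and lines are means. The complex V share is 26.2 to 26.3% in siNPM1c and 29.9 to 30.6% in siControl. The left panel depends on the scaling of libraries and the right one does not. Neither panel is corrected for GC content.

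Promoter sequences from RefSeq (GRCh38.p14; 250 bases before to 50 after the gene start) were at hand for 68 of the 86 genes and were searched on both strands for motifs of the 3 factors named above. The NRF1 motif, GCGCA and GCGC with any base between them, lay in 17 of the 68 (25%), against 8.74% of 15390 protein-coding promoters. The ETS motif CCGGAAG lay in 20 (29.4%, against 14.5%), and the YY1 motif AAGATGGCG in 8 (11.8%, against 2.8%). These motifs do not share their letters. Among genes called higher, the ETS motif lay in 6 of 11 promoters and the NRF1 motif in 1. Of those called lower, 4 of 11 had the NRF1 motif (36.4%) and 3 the ETS motif (27.3%). Of those not called, 11 of 42 had the NRF1 motif and 11 of 42 the ETS motif (26.2% each). All 8 YY1 matches lay in promoters of genes that were not called. The counts are small and describe letters in a window, not binding.

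The 4 genes called higher with an ETS match and the smallest adjusted p are COX6A1 and COX8A of complex IV and NDUFA13 and NDUFB7 of complex I. The last 100 bases before their starts are shown, 5′ to 3′ along the gene, with the match in capitals; CTTCCGG is the same motif on the other strand. The regions are chr12:120438013-120438112 (+), chr11:63974520-63974619 (+), chr19:19516125-19516224 (+) and chr19:14572067-14572166 (-).
COX6A1: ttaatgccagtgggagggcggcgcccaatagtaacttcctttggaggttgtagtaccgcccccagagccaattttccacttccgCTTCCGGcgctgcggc
COX8A: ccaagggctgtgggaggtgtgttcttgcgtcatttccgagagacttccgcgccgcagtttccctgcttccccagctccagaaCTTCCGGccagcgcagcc
NDUFA13: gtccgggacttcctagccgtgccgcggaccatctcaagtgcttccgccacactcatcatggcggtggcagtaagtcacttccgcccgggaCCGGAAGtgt
NDUFB7: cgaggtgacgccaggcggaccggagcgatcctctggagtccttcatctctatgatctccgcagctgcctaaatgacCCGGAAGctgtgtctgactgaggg

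Each match sits close to the gene start. Over the 6 genes called higher that hold an ETS match, COX4I1 and NDUFA1 included, the matches began between 47 bases before and 2 bases after the start. The 3 matches in genes called lower (NDUFS1, SDHD and UQCRH) began 157 to 46 bases before it. The 16 matches in genes not called reached from farther upstream to 3 bases after the start, so both other classes lie within their range.

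NRF1 matches among genes called lower are shown for ATP5F1C and ATP5MJ of complex V and NDUFA8 of complex I; SDHD is the fourth. The windows are chr10:7788077-7788176 (+), chr14:103921530-103921629 (-) and chr9:122159768-122159867 (-), again the last 100 bases before the start, except that the NDUFA8 window ends 12 bases inside the gene because a pair of overlapping matches lies across its start.
ATP5F1C: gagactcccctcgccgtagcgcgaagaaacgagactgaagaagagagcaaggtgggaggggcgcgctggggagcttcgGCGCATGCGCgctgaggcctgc
ATP5MJ: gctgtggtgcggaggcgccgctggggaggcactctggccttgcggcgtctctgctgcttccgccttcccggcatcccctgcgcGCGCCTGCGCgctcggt
NDUFA8: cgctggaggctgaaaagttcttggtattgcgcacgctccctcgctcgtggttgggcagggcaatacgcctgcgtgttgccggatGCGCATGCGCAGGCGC

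SDHA is the only gene called higher with the NRF1 motif among the promoters at hand. It has 4 matches in the 250 bases before its start, chr5:218070-218319 (+).
SDHA: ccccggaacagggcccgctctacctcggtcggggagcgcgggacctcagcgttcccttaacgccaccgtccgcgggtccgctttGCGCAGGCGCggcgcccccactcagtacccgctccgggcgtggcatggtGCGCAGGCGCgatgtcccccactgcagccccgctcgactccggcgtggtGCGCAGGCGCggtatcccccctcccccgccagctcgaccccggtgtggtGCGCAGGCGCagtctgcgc

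The 4 SDHA matches follow each other every 49 bases. Of the 49 bases of successive units, 28 and then 37 are identical. Each unit was counted from its match, so the motif itself is part of these identical bases. Whether the rest agree more than by chance in so GC-rich a promoter was not tested.

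Complex I consists of 7 nuclear-encoded core subunits, which bind NADH, the flavin and iron-sulphur clusters, and of accessory subunits around them. Among the 7 core subunits 3 were higher (42.9%) and 1 lower (14.3%), against 21.3% and 21.4% of all genes tested. NDUFV1, which binds NADH and the flavin, measured 43.9, 46.4 and 47.8 CPM in the siNPM1c libraries, against 38.5, 36.7 and 37.3 CPM in the siControl libraries, 1.23-fold higher (log2 0.30 ± 0.05, adjusted p = 3.01e-08). Every siNPM1c library lay above every siControl library. NDUFS8, an iron-sulphur subunit, measured 19.6, 22.6 and 21.0 CPM in siNPM1c and 19.8, 17.6 and 17.7 CPM in siControl (0.22 ± 0.07, 0.00752), with overlapping groups, and its call was lost without siNPM1c replicate 2 or siControl replicate 2, under DESeq2 and after GC correction.

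NDUFS1, the largest iron-sulphur subunit of the matrix arm, went the other way. It measured 30.5, 29.2 and 29.8 CPM in siNPM1c and 33.1, 34.6 and 33.5 CPM in siControl, 1.14-fold lower (-0.19 ± 0.06, adjusted p = 0.00347). After correction for GC content the value was -0.06 and no longer called. The ratio of NDUFV1 to NDUFS1 counts, which needs no scaling, was 1.44, 1.59 and 1.61 in the siNPM1c libraries, against 1.16, 1.06 and 1.11 in the siControl libraries. A ratio does not remove a trend with GC content, which is 60.4% for NDUFV1 and 43.9% for NDUFS1. The remaining core subunits did not pass the test. The iron-sulphur subunit NDUFV2 had a log2 fold change of -0.32 ± 0.17 (adjusted p = 0.108), NDUFS3 of 0.14 ± 0.09 (0.191) and the iron-sulphur subunit NDUFS7 of 0.08 ± 0.07 (0.392).

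Of the 29 accessory subunits of complex I that match the rule, 4 were higher (13.8%), 2 lower (6.9%) and 23 not called. Both shares lie below the 21.3% and 21.4% of all genes tested. NDUFA13, also known as the interferon-linked protein GRIM-19, had the smallest p of the complex, with 42.0, 46.4 and 45 CPM in siNPM1c and 33.5, 32.2 and 35.2 CPM in siControl, 1.33-fold higher (0.42 ± 0.05, adjusted p = 3.33e-13). NDUFB7, a membrane-arm subunit that faces the intermembrane space, had 19.9, 17.4 and 18.9 CPM in siNPM1c and 13.2, 13.0 and 13.6 CPM in siControl, (0.49 ± 0.08, 2.1e-08). For both the groups were well apart. NDUFC1, a small membrane-arm subunit, had the largest increase of the complex, 1.53-fold (0.62 ± 0.14, 0.000129). Its levels were 7.75, 5.46 and 4.86 CPM in siNPM1c, with replicate 1 above the other 2, and 3.89, 3.91 and 3.77 CPM in siControl. NDUFA1, an X-linked membrane-arm subunit, averaged 3.35 ± 0.257 CPM in siNPM1c and 2.36 ± 0.319 CPM in siControl (0.54 ± 0.18, 0.0108), a call lost under DESeq2 and without either replicate 2.

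NDUFA8, an accessory subunit of the intermembrane-space side, was 1.62-fold lower, with 2.63, 2.78 and 3.65 CPM in siNPM1c and 5.06, 4.60 and 5.06 CPM in siControl (-0.70 ± 0.16, adjusted p = 9.99e-05). NDUFA5, of the matrix arm, had the largest change of all 79 genes, 2.05-fold lower (-1.03 ± 0.34, 0.00821), at the lowest depth of any called gene: 4, 11 and 13 counts in siNPM1c, against 25, 27 and 23 in siControl. Its call was lost under DESeq2, after GC correction and without siNPM1c replicate 1 or 2. The 23 accessory genes not called were NDUFA2, NDUFA3, NDUFA6, NDUFA7, NDUFA9, NDUFA10, NDUFA11, NDUFA12, NDUFB1 to NDUFB6, NDUFB8 to NDUFB11, NDUFC2, NDUFS4, NDUFS5, NDUFS6 and NDUFV3. Their log2 fold changes ran from -0.35 (NDUFB3 and NDUFB4) to 0.36 (NDUFS6). Of these, the groups did not overlap for NDUFA9, NDUFB2, NDUFB3, NDUFS6 and NDUFV3.

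**Figure D3:**
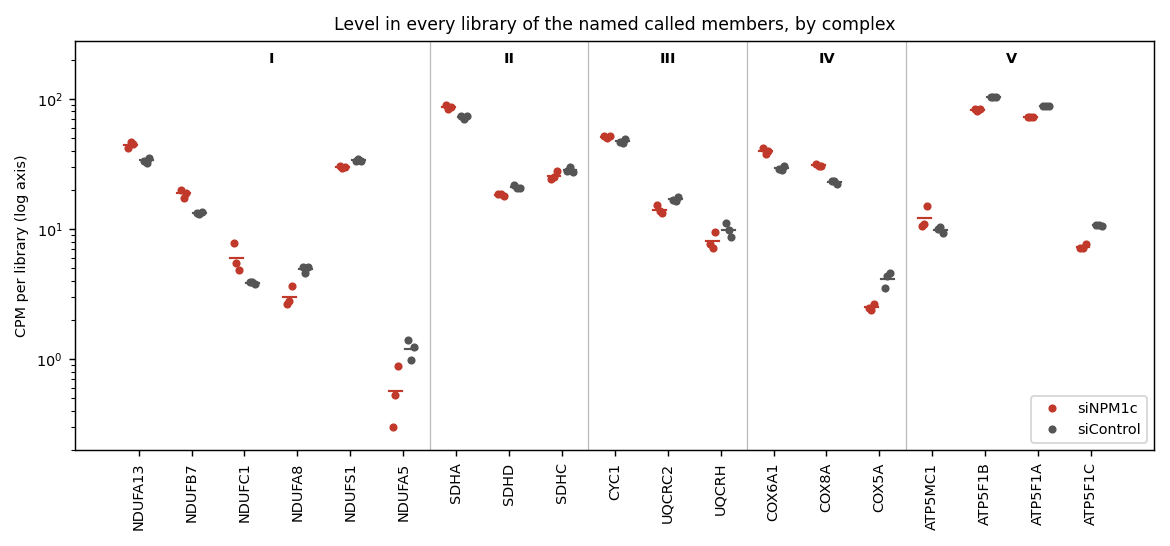
CPM in every library (log axis) of 19 called subunit genes, the ones with the smallest p or the largest change in each direction of each complex. Points are libraries, red for siNPM1c and grey for siControl, and short lines are means. The groups overlap for SDHC and UQCRH and are apart for the other genes; levels are under TMM scaling, and with library sizes alone no gene is called higher.

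Complex II, which oxidises succinate and is also an enzyme of the citric acid cycle, split between its catalytic and anchor subunits. SDHA, the flavoprotein, measured 90.1, 82.9 and 85.9 CPM in siNPM1c and 74.3, 70.6 and 73.3 CPM in siControl, 1.18-fold higher (0.24 ± 0.04, adjusted p = 1.74e-09). The membrane anchor SDHD measured 18.5, 18.4 and 18 CPM in siNPM1c and 21.7, 20.7 and 20.5 CPM in siControl, 1.14-fold lower (-0.19 ± 0.07, 0.0177). The other anchor, SDHC, measured 24.4, 24.9 and 27.7 CPM in siNPM1c and 27.7, 30 and 27.6 CPM in siControl (-0.16 ± 0.06, 0.0233), with overlapping groups. The iron-sulphur subunit SDHB averaged 9.12 ± 0.762 CPM in siNPM1c and 8.25 ± 0.21 CPM in siControl and was not called (0.15 ± 0.10, 0.254). Within a library the SDHA to SDHD count ratio was 4.87, 4.5 and 4.78 in siNPM1c, against 3.42, 3.41 and 3.57 in siControl, with no overlap. The SDHA call held when the counts of its 4 named pseudogenes were added (0.20, adjusted p = 1.56e-08), whereas the SDHC and SDHD calls were lost under DESeq2 and each without 3 of the 6 libraries in turn, siNPM1c replicates 1 and 2 and siControl replicate 2 for SDHC, and siNPM1c replicates 2 and 3 and siControl replicate 1 for SDHD.

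Complex III passes electrons from ubiquinol to cytochrome c. Its redox subunits changed little. Cytochrome c1, CYC1, measured 51.5, 49.7 and 51.7 CPM in siNPM1c and 46.8, 45.9 and 49.3 CPM in siControl, 1.08-fold higher (0.11 ± 0.05, adjusted p = 0.0477). That call sat at the threshold and was lost in 10 of the other settings, among them GC correction (0.01). The Rieske iron-sulphur protein UQCRFS1 averaged 12.4 ± 2.59 CPM in siNPM1c and 12 ± 0.686 CPM in siControl (0.03 ± 0.09, 0.789).

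The core protein UQCRC2 measured 15.2, 13.7 and 13.3 CPM in siNPM1c and 16.8, 16.4 and 17.7 CPM in siControl, 1.21-fold lower (-0.28 ± 0.08, adjusted p = 0.00229), and after GC correction it was at -0.16 and not called. Its partner UQCRC1, the most abundant gene of the complex by counts, averaged 59.2 ± 1.33 CPM in siNPM1c and 56.6 ± 0.77 CPM in siControl and was not called (0.07 ± 0.04, 0.173). The hinge protein UQCRH measured 7.67, 7.19 and 9.52 CPM in siNPM1c and 11.1, 9.78 and 8.72 CPM in siControl (-0.29 ± 0.11, 0.0177). Its groups overlapped, and the call was lost under DESeq2, after GC correction and without siNPM1c replicate 1, siNPM1c replicate 2 (-0.18) or siControl replicate 1. UQCR10, UQCR11, UQCRB and UQCRQ were not called, with log2 fold changes of -0.24 to 0.26. UQCRHL, a retrocopy of UQCRH, had 6 to 9 counts in siNPM1c and 10 to 11 in siControl and was too low to test.

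The nuclear subunits of complex IV, cytochrome c oxidase, surround a mitochondrially encoded core, and several come as tissue-specific isoforms. The ubiquitous isoforms rose relative to the bulk of genes for 3 of these pairs. COX6A1 measured 41.7, 37.5 and 39.9 CPM in siNPM1c and 29, 28.3 and 30.3 CPM in siControl, 1.36-fold higher (0.44 ± 0.05, adjusted p = 5.13e-13). COX8A measured 31.8, 30.4 and 30.5 CPM in siNPM1c and 23.3, 23.5 and 22.1 CPM in siControl, (0.42 ± 0.06, 4.67e-10). COX4I1, the isoform of most tissues, measured 34.5, 32.9 and 34.3 CPM in siNPM1c and 28, 27.7 and 30.2 CPM in siControl, 1.19-fold higher (0.25 ± 0.06, 0.000102). For all 3 genes the groups were apart, and with library sizes alone the values were -0.03, -0.05 and -0.22, against -0.48 for the median gene. Their partners COX6A2 (heart and muscle) and COX4I2 (lung) were at 0 counts in all libraries, and COX8C (testis) had 5 to 8 counts in siNPM1c and 3 to 5 in siControl.

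COX5A, the partner of COX4 in the assembling enzyme, was lower. It measured 2.48, 2.40 and 2.63 CPM in siNPM1c and 3.5, 4.31 and 4.58 CPM in siControl, 1.66-fold lower (-0.73 ± 0.17, adjusted p = 0.000155). The COX6A1 to COX5A count ratio was 16.8, 15.7 and 15.2 in the siNPM1c libraries, against 8.27, 6.56 and 6.61 in the siControl libraries. Other isoform pairs were not called. COX6B1 had a log2 fold change of 0.13 ± 0.08 (0.208) and its testis isoform COX6B2 of 0.77 ± 0.34 (0.0585), at 0.991 ± 0.29 CPM in siNPM1c and 0.603 ± 0.208 CPM in siControl. The muscle isoform COX7A1 was at 0.21 ± 0.26 (0.533), the widely expressed COX7A2 at -0.24 ± 0.12 (0.0954) and COX7A2L, known as a supercomplex factor, at -0.30 ± 0.17 (0.164). COX7B was at 0.04 ± 0.21 (0.901), and its testis isoform COX7B2 had 0 counts in all libraries. COX5B, COX6C and COX7C lay between -0.14 and 0.12 and were not called.

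COXFA4, formerly NDUFA4, is now counted with complex IV, and its present symbol falls outside the rule; it is named here after its values were seen. It had 47, 58 and 58 counts in siNPM1c and 78, 125 and 102 in siControl, a log2 fold change of -0.51 ± 0.16 (adjusted p = 0.0046).

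Complex V, the ATP synthase, had 5 lower calls of 17 tested (29.4%), against 21.4% of all genes tested. Under the same scaling 2 of 4 were lower in complex II and 3 of 36 in complex I. In the F1 part, whose head holds the catalytic sites, 3 of 4 tested subunits were lower and none higher. The catalytic beta subunit ATP5F1B measured 83.7, 81.3 and 82.9 CPM in siNPM1c and 103, 104 and 104 CPM in siControl, (-0.33 ± 0.03, adjusted p = 2.62e-17, the smallest of the 79 genes). The alpha subunit ATP5F1A measured 72.6, 72.7 and 72.9 CPM in siNPM1c and 88.0, 88.3 and 88.6 CPM in siControl, 1.21-fold lower (-0.28 ± 0.04, 3.46e-12). In both genes the spread within a group was a small part of the gap between groups.

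The gamma subunit ATP5F1C, the shaft that turns inside the head, measured 7.07, 7.09 and 7.70 CPM in siNPM1c and 10.7, 10.8 and 10.6 CPM in siControl, 1.47-fold lower (-0.56 ± 0.10, adjusted p = 1.33e-06). The delta subunit ATP5F1D did not follow. It measured 62.1, 60.1 and 54.8 CPM in siNPM1c and 55.9, 59.0 and 57.1 CPM in siControl (0.04 ± 0.04, 0.513). The ratio of ATP5F1D to ATP5F1B counts was 0.741, 0.740 and 0.661 in siNPM1c, against 0.546, 0.570 and 0.549 in siControl. The F1 subunits thus changed unequally under any scaling of libraries. The epsilon subunit ATP5F1E had 1 to 6 counts in siNPM1c and 4 to 12 in siControl and was not tested. It overlaps a readthrough gene, SLMO2-ATP5E, which had 0 counts in all libraries.

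The peripheral stalk, which holds the head still, had 1 lower subunit of 4. Subunit b, ATP5PB, measured 8.05, 6.37 and 7.90 CPM in siNPM1c and 8.90, 8.87 and 11.2 CPM in siControl (-0.39 ± 0.11, adjusted p = 0.00165), and its call was lost without siNPM1c replicate 2 or siControl replicate 3. ATP5PF (-0.27), ATP5PO (-0.17) and ATP5PD (0.19) were not called.

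Of the membrane part, 9 of 10 genes were tested, with 1 higher and 1 lower. The c-ring is encoded by 3 genes whose mature proteins are identical. ATP5MC1 measured 10.5, 11.0 and 15 CPM in siNPM1c and 10.0, 10.3 and 9.31 CPM in siControl, 1.22-fold higher (0.29 ± 0.10, adjusted p = 0.00926). The increase leaned on siNPM1c replicate 3, and without it the value was 0.12 and not called. ATP5MC2 (-0.09 ± 0.07, 0.275) and ATP5MC3 (-0.10 ± 0.08, 0.301) were not called. ATP5MJ, a small proteolipid, measured 1.5, 1.68 and 2.30 CPM in siNPM1c and 3.34, 2.50 and 2.32 CPM in siControl (-0.56 ± 0.21, 0.0208). That call was lost under DESeq2, after GC correction and without siNPM1c replicate 1 or 2 or siControl replicate 1. ATP5ME, ATP5MF, ATP5MG, ATP5MGL and ATP5MK were not called and ran from -0.30 to 0.81 (ATP5MGL, 0.81 ± 0.36, 0.059). The readthrough gene ATP5MF-PTCD1 had 0 counts in all libraries.

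Ratios across complexes gave the same split without a scaling of libraries, but do not remove a trend with GC content. These pairs, like the ratios above, were chosen after the values had been seen and are given as a description. The ATP5F1B to COX6A1 count ratio was 2.01, 2.17 and 2.08 in the siNPM1c libraries, against 3.54, 3.66 and 3.44 in the siControl libraries. The ATP5F1B to NDUFV1 ratio was 1.91, 1.75 and 1.73 in siNPM1c, against 2.66, 2.82 and 2.79 in siControl. Within the head, the ATP5F1A to ATP5F1B ratio was 0.880 ± 0.0138 in siNPM1c and 0.854 ± 0.0037 in siControl, a smaller gap, and the groups did not overlap.

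Levels per transcript length (RPKM) were computed here from CPM and the median protein-coding transcript length of GENCODE 29. That median need not be the length of the transcript expressed, so levels and ranks between genes rest on it. It was 910 bases for ATP5F1A, 856 for ATP5F1B and 670 for ATP5F1D. With these lengths 3 of the 5 F1 subunits of ATP synthase had the highest values. ATP5F1C stood at 6.5 RPKM in siNPM1c and 9.55 RPKM in siControl, and ATP5F1E was too low to test. ATP5F1B averaged 96.5 ± 1.44 RPKM in siNPM1c and 121 ± 0.941 RPKM in siControl, and ATP5F1D 88.0 ± 5.63 RPKM in siNPM1c and 85.6 ± 2.34 RPKM in siControl. ATP5F1A stood at 79.9 ± 0.156 RPKM in siNPM1c and 97.0 ± 0.367 RPKM in siControl. With the lengths used, the alpha subunit thus ranked below the delta subunit in siNPM1c and above it in siControl. COX6A1 (69.4 ± 3.65 RPKM) and NDUFV1 (65.5 ± 2.86 RPKM) were next in siNPM1c, not apart beyond their spread. In siControl SDHC (61.8 ± 2.98 RPKM) followed these 3 F1 subunits and NDUFV1 (53.3 ± 1.27 RPKM) and COX6A1 (51.0 ± 1.75 RPKM) came after it. Median levels by complex were 7.84 RPKM in siNPM1c and 8.13 in siControl for complex I, and 8.23 in siNPM1c and 9.55 in siControl for complex V.

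The calls moved with GC content, which the rule did not use. Genes called higher had a median GC content of 55.3% (49.8 to 65%), genes called lower 47% (36.6 to 51.4%) and genes not called 48.7% (38.1 to 68.1%). All genes tested had the same direction: their median log2 fold change was -0.22 in the quintile of lowest GC content and 0.09 in the quintile of highest. In the 2 quintiles below a GC content of 48.1%, 0 of 33 subunit genes were higher and 8 lower, while 9.24% and 13.9% of all genes there were higher and 35.5% and 27.1% lower. In the 2 quintiles above 54%, 7 of 24 were higher and 0 lower, against 27.8% and 33.8% of all genes higher and 14.9% and 12.2% lower. The rank correlation of fold change with GC content was 0.48 over the 79 genes and 0.29 over 12557 genes; all share the same 6 libraries, and no p is given. When the trend of counts with GC content was removed in each library, 7 of the 26 calls were lost (ATP5MJ, CYC1, NDUFA5, NDUFS1, NDUFS8, UQCRC2 and UQCRH) and 4 gained (ATP5MG, ATP5MGL, ATP5PD and NDUFB9), giving 15 higher and 8 lower. Transcript length had a weaker relation, -0.14 over the 79 genes and -0.04 over all genes, and 62 of the 79 genes lie in the shortest quintile of transcripts.

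**Figure D4:**
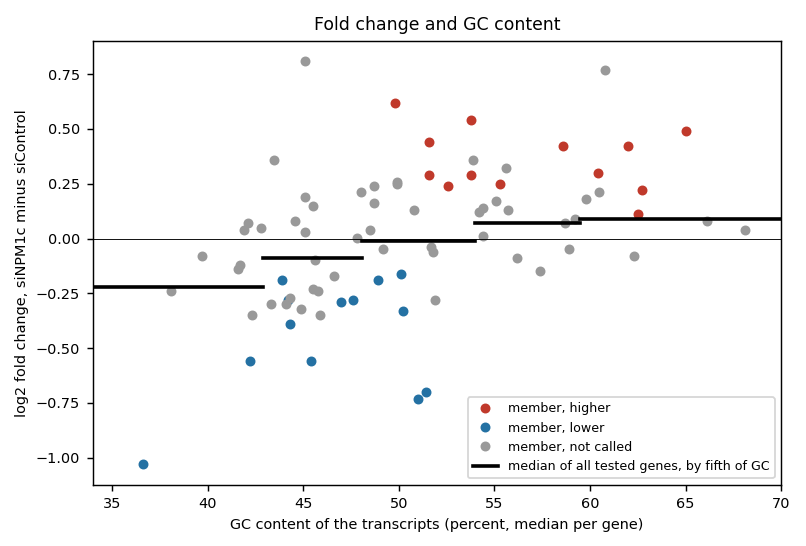
Log2 fold change (vertical axis, siNPM1c minus siControl, TMM scaling) against GC content of the transcripts (horizontal axis, percent) for the 79 tested subunit genes, coloured by call. Black bars are medians of all tested genes in quintiles of GC content, from -0.22 in the lowest to 0.09 in the highest. No gene called lower lies above 51.4% and none called higher below 49.8%; with library sizes alone no gene is called higher.

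Precision differed between the classes. Standard errors had a median of 0.06 for genes called higher, 0.10 for genes called lower and 0.13 for genes not called. Of the 53 genes not called, 24 averaged under 100 counts per library, as did 2 of the 13 genes called higher and 4 of the 13 called lower. The part of depth in the calls was not tested. Overlapping annotation touches 29 of the 86 genes, among them ATP5F1B with BAZ2A, and reads of overlapping genes cannot be told apart without the counter's strand setting, which is not given in the sources used here.

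Genes that build, feed or regulate the chain were counted from lists drawn up by function. Their shares are set against the 21.3% higher and 21.4% lower of all genes tested. Of 50 tested assembly factors, 7 were higher (14%) and 3 lower (6%), both below those shares, with a median of 0.11. The called ones with the smallest p were COA1, a complex I and IV factor (0.55 ± 0.10, adjusted p = 1.33e-06), SCO2, which delivers copper to complex IV (0.78 ± 0.15, 3.24e-06), and UQCC4, a complex III factor (0.52 ± 0.11, 1.47e-05). Electron carriers and linked genes had 6 higher (24%) and 2 lower (8%) of 25 (median -0.01). That list holds CYCS, the COQ and PDSS genes, enzymes that feed ubiquinone, ATP5IF1, COXFA4L2, HIGD1A, HIGD2A and NDUFAB1. NDUFAB1, a complex I subunit whose symbol falls outside the rule, was not called (-0.07 ± 0.16, adjusted p = 0.739). SQOR, the sulphide-oxidising enzyme that passes electrons to ubiquinone, averaged 20.1 ± 2.02 CPM in siNPM1c and 10.0 ± 0.534 CPM in siControl (1.00 ± 0.08, 8.26e-25). Both subunits of the electron-transferring flavoprotein changed, ETFB upward (0.44 ± 0.06, 7.86e-11) and ETFA downward (-0.64 ± 0.09, 8e-10). Cytochrome c, CYCS, was not called (0.06 ± 0.07, 0.58).

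Regulators of mitochondrial biogenesis had 3 higher (18.8%) and 2 lower (12.5%) of 16 tested (median -0.13), near or below the shares of all genes. The coactivator PPARGC1B (0.46 ± 0.07, adjusted p = 5.54e-09), the nuclear receptor ESRRA (0.30 ± 0.05, 4.2e-08) and YY1 (0.26 ± 0.04, 4.33e-08) were higher. GABPA, the DNA-binding subunit of GABP, averaged 1.78 ± 0.0468 CPM in siNPM1c and 2.90 ± 0.293 CPM in siControl (-0.69 ± 0.20, 0.00304). NRF1 was not called (-0.07 ± 0.12, 0.642). Pyruvate dehydrogenase and citric acid cycle genes had 3 higher (18.8%) and 6 lower (37.5%) of 16 (median -0.15). PDHA1 (0.53 ± 0.10, adjusted p = 6.04e-07) and MDH2 (0.24 ± 0.05, 3.4e-06) were among the higher ones. Of the 6 lower ones FH had the smallest p (-0.45 ± 0.09, adjusted p = 9.12e-06). With library sizes alone the higher calls in these 4 lists came to 0 apart from 1 among the carriers. The 13 subunits encoded by mitochondrial DNA were not analysed here.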

How the data were processed

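RNA sequencing of OCI-AML3 cells was analysed from the 1 table the authors deposited, raw read counts per gene keyed by Entrez identifiers, with 3 siNPM1c and 3 siControl libraries. Tools listed in the submitters' processing notes, without roles, are STAR 2.7.5a, cutadapt 2.6, CASAVA 1.8 and DESeq2 1.34.0, and the builds listed are mm10 and hg38. The counter, its annotation and its strand setting are not given in the sources used here. Columns and groups were assigned by the labels. Symbols and protein-coding status came from RefSeq gene tables (GRCh38.p14), which matched 28261 of 28307 identifiers and left 46 without a symbol.

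Counts were analysed with R 4.3.3 and edgeR 4.0.16: filterByExpr (minimum count 10, minimum total 15), TMM, and the quasi-likelihood test (robust, both directions) with Benjamini-Hochberg adjustment over all genes tested. A gene is called at an adjusted p under 0.05. Fold changes are siNPM1c minus siControl on the log2 scale, and standard errors are the log2 fold change over the square root of F. Totals were 15075235 to 25190122 counts, and the common biological coefficient of variation was 2.17%. Pairs of libraries of 1 group had a chi-square of 1.46 to 2.36 per degree of freedom over genes with at least 20 counts, so no library was a copy of another. GC content and transcript length are medians over GENCODE 29 transcripts, and 97.1% of the genes tested had a value. The scripts were tested on simulated counts.

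Subunit genes, lists and tests were chosen with earlier results of these data known. In each complex the text names the 2 called genes of smallest p and the largest change in each direction, the catalytic or redox subunits and isoform sets whatever their p, and up to 3 called genes of each related list; a few genes that these rules name are not reported here. Alternatives were DESeq2 size factors, upper-quartile factors, library sizes alone, protein-coding genes only, structural RNA genes left out, no filter, at least 5 CPM in 3 libraries, the Wald test of DESeq2 1.42.0, voom of limma 3.58.1, a fit without robust estimation, the replicate number as a block, corrections for GC content and length (lowess, span 0.3) and leaving out each library. Adding pseudogene counts to SDHA was chosen after the data had been seen. Promoters and motifs were read with Python 3.11.15.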

Additional observations from a re-analysis of the deposited data

How the results depend on the processing

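Of the 26 called subunit genes, 14 kept call and direction in every setting that tested them other than library sizes alone (COX5A and NDUFC1 did not pass the filter of 5 CPM), 9 higher and 5 lower. Among them were COX4I1, COX6A1, COX8A, NDUFA13, NDUFB7, NDUFC1, NDUFV1 and SDHA, higher, and ATP5F1A, ATP5F1B, ATP5F1C, COX5A and NDUFA8, lower. With library sizes alone the calls were 0 higher and 59 lower over all genes of the set, 0 and 26 in complex I, 0 and 4 in II, 0 and 8 in III, 0 and 8 in IV and 0 and 13 in V, and the medians were -0.43 over all, -0.39, -0.47, -0.53, -0.34 and -0.65 by complex, against -0.48 for all genes tested. Among the log2 fold changes that turned there were ATP5F1D -0.43, ATP5MC1 -0.18, ATP5ME -0.14, ATP5MG -0.11, ATP5PD -0.28, COX4I1 -0.22, COX5B -0.34, COX6A1 -0.03, COX6B1 -0.34, COX6C -0.40, COX7A1 -0.26, COX7B -0.43, COX8A -0.05, CYC1 -0.36, NDUFA12 -0.39, NDUFA13 -0.06, NDUFA3 -0.29, NDUFA6 -0.46, NDUFA7 -0.30, NDUFB1 -0.26, NDUFB10 -0.38, NDUFB2 -0.22, NDUFB8 -0.46, NDUFB9 -0.23, NDUFC2 -0.31, NDUFS3 -0.33, NDUFS4 -0.42, NDUFS5 -0.43, NDUFS6 -0.10, NDUFS7 -0.39, NDUFS8 -0.26, NDUFV1 -0.17, NDUFV3 -0.34, SDHA -0.22, SDHB -0.32, UQCR10 -0.21, UQCRC1 -0.40 and UQCRFS1 -0.43; that setting counts rRNA in the library size. Lower calls came to 8 with DESeq2 (complex II 0 lower, III 0 higher and 1 lower, V 0 higher) and to 8 after GC correction (complex I 1 lower, III 0 higher and 0 lower, V 4 higher, median of II 0.03 and of III -0.01). GC correction also turned ATP5F1D -0.10, COX7C 0.04, NDUFB5 0.14, NDUFB6 0.06, NDUFB8 -0.03, NDUFS7 -0.04, UQCRB 0.02 and UQCRC1 -0.01. With no filter complex III had 0 higher, the median of V was -0.24, and NDUFA6 -0.02 and NDUFB8 -0.01 turned. With upper-quartile factors complex III had 0 higher and NDUFA6 -0.01 and NDUFB8 0.00 turned. The filter of 5 CPM, with fewer genes tested, gave III 0 higher and a median of -0.11 and IV 0 lower. Voom gave III 0 higher and V 2 higher, and protein-coding genes only V 2 higher and a median of -0.01 for III. The cause of these changes was not tested, apart from the constructions stated.

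Leaving out each library in turn gave 11 to 15 higher and 7 to 14 lower calls over the set; the 7 came without siNPM1c replicate 2. By complex, the calls were 5 to 8 higher and 2 to 4 lower in I, 1 to 1 higher and 0 to 2 lower in II, 0 to 1 higher and 1 to 2 lower in III, 3 to 4 higher and 1 to 2 lower in IV and 0 to 3 higher and 3 to 5 lower in V. The medians were 0.03 to 0.08 in I, -0.02 to 0.02 in II, -0.12 to 0.00 in III, 0.06 to 0.14 in IV and -0.26 to -0.13 in V. Uncalled genes that changed sign in these fits were COX7A1 -0.20 to 0.42, COX7B -0.05 to 0.22, NDUFA10 -0.09 to 0.01, NDUFA11 -0.15 to 0.00, NDUFA12 -0.04 to 0.27, NDUFA2 -0.08 to 0.02, NDUFA6 -0.05 to 0.07, NDUFA7 -0.04 to 0.41, NDUFB11 -0.08 to 0.00, NDUFB6 -0.25 to 0.01, NDUFB8 -0.05 to 0.10, NDUFS4 -0.11 to 0.22 and UQCRFS1 -0.09 to 0.16. The deviations from the group means of samples of the same replicate number correlated at 0.015, 0.00157 and 0.003, and 1 of the 3 numbers was matched best by its own, so the numbers share only a label; with the replicate block the set had 14 higher and 13 lower calls and the median was 0.04. Over all genes DESeq2 called 29.6% and the fit without a filter 23.3%, against 42.7%. Counting NDUFA4 under complex I was not run, since no gene of the set carries that symbol. Under 100 counts on average were 24 of the 53 uncalled and 6 of the 26 called genes, and the part of depth in the calls was not tested.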
